A study of Mus musculus with 6 samples.

Results

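The genes described here are 31 genes of 2 cell types that line the fluid spaces of the brain. Of these, 16 mark the choroid plexus epithelium and 15 mark ciliated ependyma. All probes carrying one of their symbols were taken from the arrays, 55 of 56605 probes in all (30 for choroid plexus genes and 25 for ependymal genes). A probe was compared if the scanner flagged it as well above background throughout at least 1 genotype, which 44 of the 55 did. This left 29 of the 31 genes, all 16 of the choroid plexus and 13 of the ependyma, among 24932 genes tested. The ependymal genes Ak7, an adenylate kinase, and Spag17, a protein of the central pair of the axoneme, were not tested. The better Ak7 probe was well above background on 4 of 6 arrays, and both Spag17 probes were on none. Where a gene had several tested probes, the probe with the highest mean stands for it.

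The samples were brainstem and cerebellum tissue from mice aged 16 weeks, of a mixed C57BL/6, 129 and C3H background. Wild-type mice gave 3 of the samples and mice labelled MSA transgenic gave the other 3, with 1 single-colour Agilent array for each. The labels do not spell out MSA, name the transgene or its promoter, or give sex, and they do not say that each sample is another animal. The p-values therefore rest on the spread of these samples alone, which may be technical. Levels are log2 processed signal minus the log2 of the 75th percentile of the array, so a level of 0 equals that percentile, and a difference is transgenic minus wild type on that log2 scale. Wild-type replicate 1 was alone on 1 slide, with a 75th percentile of 405.7 intensity units against 535 to 609.2 on the 5 arrays of the other slide. Replicate 1 of each genotype has a title number that starts with 7, and the other 4 samples have one that starts with 8. The labels do not say what these numbers mean. All 8 cerebellar and all 8 brainstem genes checked passed the filter, and so did 6 of 7 forebrain genes and 5 of 7 hypothalamic genes.

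The choroid plexus is a folded epithelium that hangs in the ventricles, including the fourth ventricle between brainstem and cerebellum, and makes cerebrospinal fluid. It carries ions, water, vitamins and hormones from blood to that fluid and secretes carrier proteins such as transthyretin. Ependymal cells line the ventricle walls and bear tufts of motile cilia, which are built under FOXJ1 and the RFX factors from dynein arms, radial spokes and a central pair of microtubules. RFX factors bind an element called the X-box in the promoters of cilia genes.

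The promoter sequences of the ependymal genes are shown because they hold a feature that the choice of the genes did not use. The RefSeq promoter table (GRCm38.p6) gives 250 bases before to 50 bases after each start, and it held 23 of the 31 genes. Both strands were searched for the X-box, taken here as GTTGCC, then AT, then GGCAAC, with up to 3 mismatches. Its core GTTGCC alone, which can lie inside such a match, was searched as well. Other spacings between GTTGCC and GGCAAC were not searched. The capitals mark the X-box match in the windows of Ccdc153, Enkur, Hydin and Tekt1. In those of Dynlrb2 and Spef2 they mark the GTTGCC core, where no X-box match was found at the spacing searched. Each window has 30 bases, read 5′ to 3′ on the strand of the match.
Ccdc153 (GRCm38.p6 chr9:44240517-44240546, plus strand): gttttccaGTTGCCTGGACAACgtgcagta
Enkur (GRCm38.p6 chr2:21205356-21205385, minus strand): tagcaactGTTTCCTTAGCAACcacgtggt
Hydin (GRCm38.p6 chr8:110266948-110266977, plus strand): actctgcgGTTGCTGTGGCAACagatggta
Tekt1 (GRCm38.p6 chr11:72361876-72361905, minus strand): tccgtccgGTTGCCATAGAGACcgcagttt
Dynlrb2 (GRCm38.p6 chr8:116504952-116504981, plus strand): acttcctgcctgGTTGCCtagcaacggggg
Spef2 (GRCm38.p6 chr15:9748843-9748872, minus strand): ccttagcaactgGTTGCCctgggcgacggg
An X-box match lay in 4 of 12 ependymal promoters (33.3%) and in 0 of 18 choroid plexus promoters, against 3.37% of all 32851 promoters in the table. The core lay in 6 of 12 ependymal promoters (50%) and in 3 of 18 choroid plexus promoters (16.7%), against 12.5% of all promoters. In wider lists of genes of both cell types, the X-box lay in 11 of 46 motile cilia promoters (23.9%) and in 1 of 36 choroid plexus promoters (2.78%). A FOXJ1-type TGTTTA was in 4 of 12 ependymal promoters (33.3%), in 4 of 18 choroid plexus promoters (22.2%) and in 13.4% of all promoters. In the wider lists it was in 17.4% of motile cilia promoters and in 8.33% of choroid plexus promoters. An OTX2-type TAATCC was in 1 choroid plexus promoter (5.56%), that of Otx2 itself, in 11.1% of the wider choroid plexus list, in 13% of the wider motile cilia list and in 7.06% of all promoters. TATAAA was in 3 choroid plexus promoters (16.7%), in 1 ependymal promoter (8.33%) and in 13.6% of all promoters. These matches are descriptions of letters in a window, not sites of binding.

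No choroid plexus or ependymal gene differed between the genotypes after adjustment over all genes (limma, Benjamini-Hochberg adjusted p under 0.05), where 0.0441% of all genes tested did (0.0361% higher and 0.00802% lower in transgenic samples). The lowest adjusted p was 0.817 among the 16 choroid plexus genes and 0.783 among the 13 ependymal genes. At an unadjusted p under 0.05, the count was 0 of 16 choroid plexus genes and 1 of 13 ependymal genes (Ccdc39), against 5.86% of all genes (3.15% higher and 2.71% lower). The arrays of the 2 genotypes did not overlap for 0 choroid plexus genes and for 1 ependymal gene, against 14.9% of all genes (7.39% higher and 7.5% lower). The choroid plexus genes had a median difference of -0.04, with 5 above 0 and 11 below, or 7 above and 9 below with slide as a block. With normexp background correction their median was -0.10. The ependymal genes had a median difference of 0.12, with 10 above 0 and 3 below. It was 0.03 (8 above 0 and 5 below) with normexp background correction and 0.02 (8 and 5) without wild-type replicate 3. Without transgenic replicate 3 it was 0.00 (7 and 6). With slide as a block it was 0.08 (8 and 5), and 0.07 (8 and 6) when wild-type replicate 1 was left out. These last settings are not separate checks, because that array was alone on its slide. The median over all genes was -0.00, with 49.9% above 0. The median SD within a genotype was 0.23 for choroid plexus genes and 0.24 for ependymal genes, against 0.18 over all genes. In whole tissue, fewer cells of a type and less RNA per cell cannot be told apart.

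**Figure D1:**
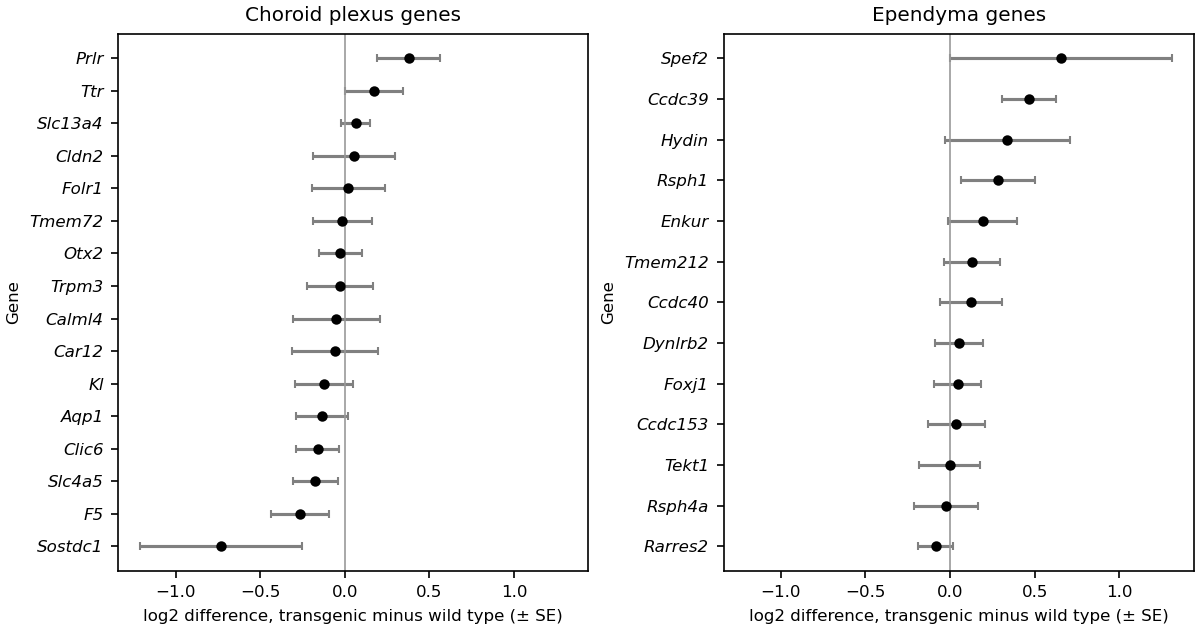
Log2 difference (transgenic minus wild type) of each tested gene, with the standard error of the limma fit, choroid plexus genes and ependymal genes apart. Differences run from -0.73 for Sostdc1 to 0.66 for Spef2, and none has an adjusted p under 0.05.

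Among the 16 choroid plexus genes, no carrier or transport gene differed between the genotypes beyond the spread between replicates. Ttr encodes transthyretin, the thyroid hormone and retinol carrier of cerebrospinal fluid. Its level was 6.97, 7.60 and 7.32 in wild-type replicates 1 to 3 and 7.56, 7.36 and 7.50 in transgenic replicates 1 to 3. The lowest array was wild-type replicate 1, the highest was wild-type replicate 2, and the transgenic arrays lay between them. Ttr differed by 0.17 ± 0.17 (SE, n = 3 per genotype; limma adjusted p = 0.821), with a 95% confidence interval of -0.25 to 0.60. A second Ttr probe differed by -0.00 ± 0.17.

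Folr1 encodes the folate receptor that moves folate into cerebrospinal fluid. Its level was 1.78, 2.23 and 1.59 in wild-type samples and 2.0022, 1.58 and 2.09 in transgenic samples. High and low arrays occurred in both genotypes, and the difference was 0.02 ± 0.21, with an interval of -0.51 to 0.55. Slc13a4, a sodium-coupled sulfate transporter, had levels of 2.51, 2.45 and 2.38 in wild-type samples and 2.45, 2.50 and 2.59 in transgenic samples. The genotypes overlapped, and of the 16 genes its interval was the narrowest, -0.14 to 0.27 around a difference of 0.06. Clic6, of the chloride intracellular channel family, had levels of 2.58, 2.53 and 2.21 in wild-type samples and 2.38, 2.19 and 2.26 in transgenic samples. Wild-type replicates 1 and 2 were highest and wild-type replicate 3 lay among the transgenic arrays, with a difference of -0.16 ± 0.13.

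The other transport genes differed by at most 0.17 in either direction. The water channel gene Aqp1 differed by -0.13 ± 0.15 and the bicarbonate transporter gene Slc4a5 by -0.17 ± 0.13. Car12, a carbonic anhydrase, differed by -0.06 ± 0.25, and Cldn2, which encodes a tight junction protein, by 0.05 ± 0.24. The genotypes overlapped for each of these genes. The cation channel gene Trpm3 differed by -0.03 ± 0.20, and its 5 tested probes ranged from -0.22 to 0.38. The probe at 0.38 was well above background on 2 of 3 wild-type arrays and on all transgenic arrays. It was thus tested only through the transgenic group, and 0.38 is given as a value alone. The rest ranged from -0.22 to -0.03.

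Among regulators, receptors and secreted factors, Sostdc1 and Prlr had the largest differences. Otx2, the homeobox factor needed for choroid plexus development, had levels of 2.05, 1.87 and 1.65 in wild-type samples and 1.92, 1.75 and 1.81 in transgenic samples. All transgenic arrays lay within the wild-type range, and the difference of -0.03 ± 0.12 had no stable sign: it was 0.07 without wild-type replicate 1. Kl, which encodes the FGF co-receptor klotho, differed by -0.13 ± 0.17, and F5, coagulation factor V, by -0.26 ± 0.17. Calml4, a calmodulin-like gene, differed by -0.05 ± 0.26 and Tmem72, a membrane protein gene, by -0.02 ± 0.17.

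Sostdc1 encodes a secreted antagonist of BMP and Wnt signalling. Its level was 1.96, 0.75 and 0.69 in wild-type samples and 1.20, -0.06 and 0.07 in transgenic samples. Replicate 1 was the highest of its genotype on both sides, and transgenic replicate 1 lay above wild-type replicates 2 and 3, so the genotypes overlapped. The difference was -0.73 ± 0.48 (0.602-fold; limma adjusted p = 0.817), with an interval of -1.92 to 0.45. The samples with a title number starting with 7 differed by -0.76 (1 against 1) and those starting with 8 by -0.72 (2 against 2). With that digit as a block the standard error fell to 0.08, and the adjusted p was 0.139, still above the threshold. Within the slide that holds 5 arrays the difference was -0.32 ± 0.40. The choroid plexus gene Wfdc2 of the wider list, singled out after its values were seen, was also highest on both replicates 1: its level was 0.04, -0.46 and -0.80 in wild-type samples and -0.03, -1.15 and -0.89 in transgenic samples.

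Prlr encodes the prolactin receptor, and it was singled out after its probe values were seen. The probe kept for the gene had levels of 0.38, 0.46 and -0.03 in wild-type samples and 0.92, 0.42 and 0.60 in transgenic samples. Transgenic replicate 2 lay below wild-type replicate 2, so the genotypes overlapped, and the difference was 0.38 ± 0.19 (limma adjusted p = 0.817). A second probe had levels of -2.31, -2.38 and -2.50 in wild-type samples and -1.61, -1.89 and -1.70 in transgenic samples. All transgenic arrays lay above all wild-type arrays on it, with a difference of 0.66 ± 0.11 (limma unadjusted p = 0.001, adjusted over all 38463 probes tested 0.263). The last probe was well above background on 2 of 3 wild-type arrays and on all transgenic arrays, so it was tested only through the transgenic group, and its difference of 0.50 ± 0.33 is given as a value alone. No Prlr probe was called. Of all probes tested, 0.0286% were called and 5.59% had an unadjusted p under 0.05.

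The stretches of 30 bases below are shown because the probes of each of these 3 genes gave unequal differences. They are the last 30 bases of each probe of 60, with positions of the whole probe in mm9, and capitals mark the polyadenylation signal AATAAA.
Prlr, kept probe (mm9 chr15:10259066-10259125, plus strand): gtggtctgctaacagatgttacaggatgtg
Prlr, second probe (mm9 chr15:10255629-10255688, plus strand): ggccgttctctctgctgtcatctgtttgat
Prlr, last probe (mm9 chr15:10278249-10278308, plus strand): ctcttagacctctttaAATAAAgattttct
Ccdc39, kept probe (mm9 chr3:33711456-33711515, minus strand): gatgtttttaagggggttaacatgagggag
Ccdc39, second probe (mm9 chr3:33724373-33724432, minus strand): cttgaagcaaaaatccttgaacttaagaag
Spef2, kept probe (mm9 chr15:9592491-9592550, minus strand): gctcaatgtcttccctgttccaccggagat
Spef2, second probe (mm9 chr15:9634219-9634278, minus strand): tggaattcccatatatgaacagacttctct
Spef2, last probe (mm9 chr15:9507996-9508055, minus strand): aagaagtgaaggctgtggttttggtttttt
Of these stretches, the one of the last Prlr probe holds the signal, and 8 of the 55 probes hold it anywhere. An exon annotation of mm9 was not used here, so which exon or untranslated region each probe lies in is not given.

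**Figure D2:**
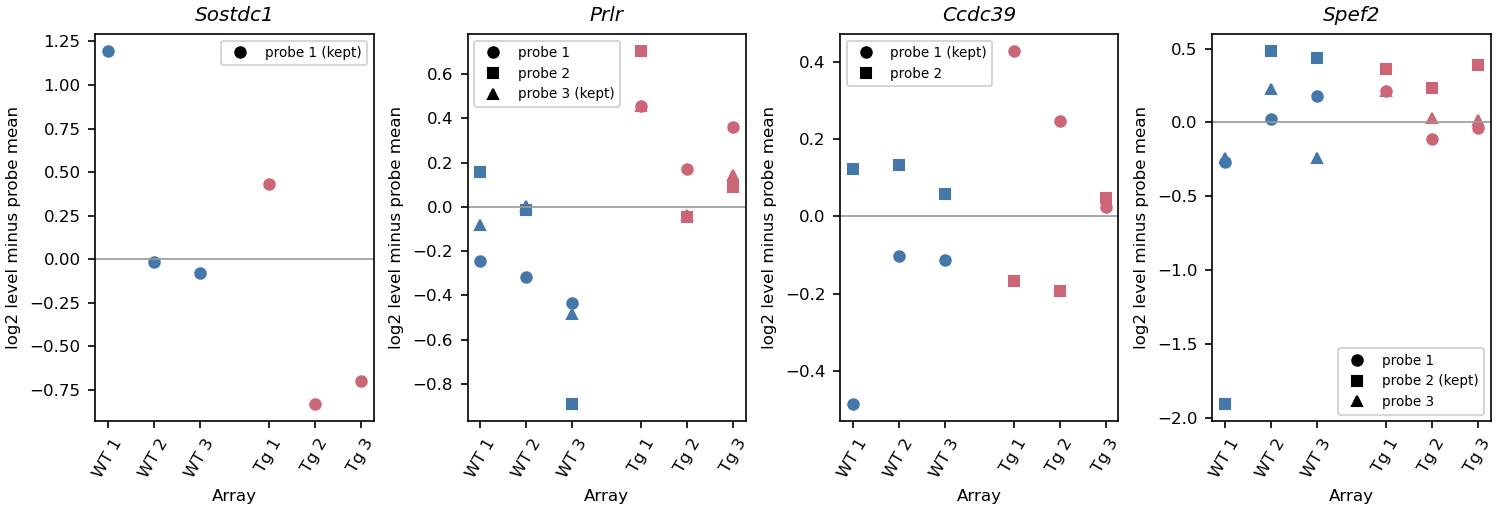
Level on each array minus the mean of the probe over the arrays (log2 scale), with genotype by colour. The tested probes of Sostdc1, Prlr, Ccdc39 and Spef2 are shown. The Prlr probe with a difference of 0.66 (probe 1 in the legend) separates the genotypes, and the 2 Ccdc39 probes differ in opposite directions. The kept Spef2 probe is low on wild-type replicate 1 alone.

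Of the ependymal genes, the axonemal gene Ccdc39 had the smallest p. Its protein pairs with that of Ccdc40 to form the ruler that spaces dynein arms and radial spokes along the cilium. The kept probe had levels of -3.33, -2.95 and -2.96 in wild-type samples and -2.42, -2.60 and -2.83 in transgenic samples. All transgenic arrays lay above all wild-type arrays, with a difference of 0.47 ± 0.16 (1.38-fold; limma unadjusted p = 0.0267, adjusted p = 0.783). The second probe had levels of -3.92, -3.91 and -3.99 in wild-type samples and -4.22, -4.24 and -4.00 in transgenic samples. All transgenic arrays lay below all wild-type arrays on that probe, and the difference was -0.21 ± 0.10 (limma unadjusted p = 0.0833, adjusted over all probes 0.843). The mean of both probes differed by 0.13, and normexp background correction gave 0.15 for the kept probe. Ccdc40 itself differed by 0.12 ± 0.18.

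Spef2, a protein of the central pair apparatus, had the widest range of the ependymal genes. Its kept probe had levels of 3.04, 5.43 and 5.38 in wild-type samples and 5.31, 5.18 and 5.34 in transgenic samples. The array of wild-type replicate 1 stood below the other 5, whose range was 5.18 to 5.43. The difference of 0.66 ± 0.66 therefore rested on that array, and within the slide of the other 5 arrays it was -0.13 ± 0.08. The 2 other tested Spef2 probes differed by 0.04 ± 0.15 and 0.17 ± 0.16. Their mean wild-type levels were -4.72 and -2.27, against 4.62 for the kept probe. The untested Spef2 probe was well above background on 0 arrays. Whether the kept probe measures Spef2 was not tested. Hydin, which encodes another central pair protein, had a level of -4.07 on the same array and -3.00 to -2.70 on the others. Its difference was 0.34 ± 0.37, and -0.09 ± 0.12 within the slide of 5 arrays. Hydin had 1 tested probe of 4.

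The cilia regulator Foxj1 and the brightest other ependymal genes differed by less than 0.10. Foxj1, the transcription factor that switches on motile ciliogenesis, had levels of -0.28, 0.13 and -0.14 in wild-type samples and -0.21, 0.03 and 0.03 in transgenic samples. The genotypes overlapped, and the difference was 0.04 ± 0.14, or -0.05 without wild-type replicate 1. Dynlrb2, a dynein light chain, had levels of 0.36, 0.46 and 0.20 in wild-type samples and 0.45, 0.15 and 0.57 in transgenic samples. Transgenic replicates 2 and 3 were the lowest and highest of the 6 arrays, and the difference was 0.05 ± 0.14. Ccdc153, a coiled-coil gene used as an ependymal marker, had levels of 0.08, 0.60 and 0.23 in wild-type samples and 0.20, 0.30 and 0.52 in transgenic samples. Wild-type replicates 1 and 2 were its lowest and highest arrays, and the difference was 0.04 ± 0.17, or -0.08 without wild-type replicate 1. Rarres2, which encodes the secreted chemoattractant chemerin, had levels of 1.05, 1.11 and 1.09 in wild-type samples and 0.94, 0.87 and 1.17 in transgenic samples. The wild-type arrays lay within the transgenic range, and the difference was -0.09 ± 0.10.

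The remaining ependymal genes overlapped between the genotypes. The radial spoke head genes Rsph1 and Rsph4a differed by 0.28 ± 0.22 and -0.03 ± 0.19. Tekt1, which encodes a microtubule-stabilising tektin, differed by -0.00 ± 0.18. Enkur, a gene of the axoneme, differed by 0.19 ± 0.20, and Tmem212, a membrane protein gene, by 0.13 ± 0.17.

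**Figure D3:**
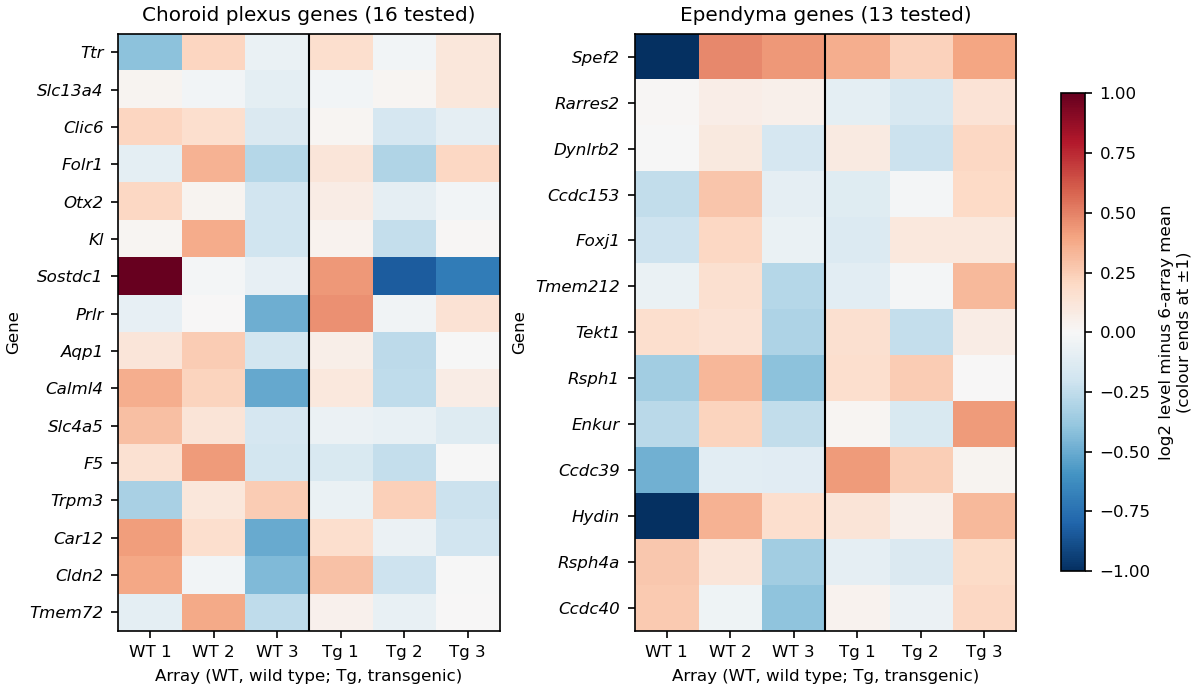
Deviation of each tested gene from its own mean over the 6 arrays (log2 scale), genes in rows by cell type and arrays in columns by genotype. Choroid plexus genes are mostly above their means on wild-type replicates 1 and 2 and transgenic replicate 1, and mostly below on wild-type replicate 3 and transgenic replicate 2.

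Most choroid plexus genes lay above or below their means on the same arrays, in both genotypes. Of the 16 genes, 11, 13 and 1 were above their own 6-array mean on wild-type replicates 1, 2 and 3, and 12, 2 and 7 on transgenic replicates 1, 2 and 3. The median deviation was 0.14, 0.17 and -0.19 on the wild-type arrays and 0.07, -0.13 and -0.00 on the transgenic arrays. Arrays above and below the mean thus occurred in both genotypes, and wild-type replicate 3 held the lowest value of 8 of the 16 genes. Of all genes tested, between 50.7% and 55.1% were above their own mean on each array. Without wild-type replicate 3, the median difference of the choroid plexus genes was -0.20 (4 above 0 and 12 below), against -0.04 with all arrays. Without wild-type replicate 2 its sign turned, to 0.02 (10 above 0 and 6 below), and without transgenic replicate 1 it was -0.10 and without transgenic replicate 2 -0.01.

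The wider list of choroid plexus genes, which shares no gene with the 16, had the same order of arrays at its ends. Of its 28 tested genes, 19, 25 and 5 were above their own mean on wild-type replicates 1, 2 and 3, and 18, 5 and 10 on transgenic replicates 1, 2 and 3. Wild-type replicate 2 was highest and wild-type replicate 3 lowest by median deviation (0.14 and -0.14) in this list as in the 16 genes. Its median difference was -0.07, -0.19 without wild-type replicate 3, -0.13 without transgenic replicate 1 and -0.02 without wild-type replicate 1.

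By median deviation, the ependymal genes lay on the same side of their means as the choroid plexus genes on 4 of 6 arrays. Wild-type replicate 1 and transgenic replicate 3 were the other arrays. Of the 13 genes, 4, 11 and 3 were above their own mean on wild-type replicates 1, 2 and 3, and 8, 5 and 13 on transgenic replicates 1, 2 and 3. The median deviation was -0.21, 0.16 and -0.17 on the wild-type arrays and 0.04, -0.02 and 0.20 on the transgenic arrays. Wild-type replicate 1 was high for choroid plexus genes and low for ependymal genes, while transgenic replicate 3 was close to the mean for the first and highest for the second. In the wider list of 44 tested motile cilia genes, wild-type replicate 2 and transgenic replicate 3 were also the highest arrays, with 30 and 36 genes above their own mean. Meningeal genes were high on transgenic replicate 3 as well, with 13 of 13 above their own mean and a median deviation of 0.23. The summed level of the 13 meningeal genes was 20.81 to 23.87 in wild-type samples and 20.32 to 24.88 in transgenic samples. Their part in the levels of the ependymal genes was not tested.

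**Figure D4:**
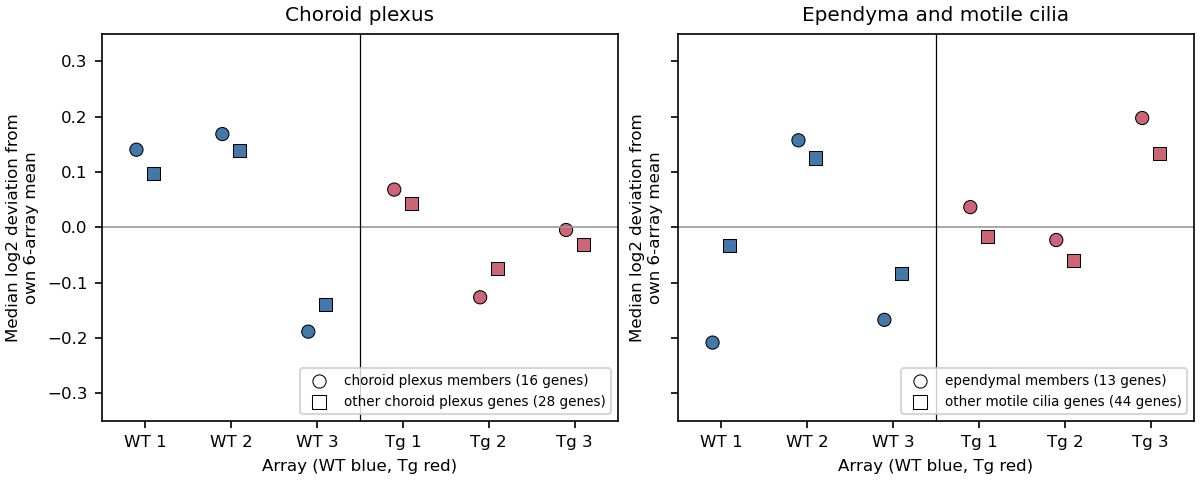
Median deviation from the own 6-array mean (log2 scale) on each array for the choroid plexus and ependymal genes and for the wider lists of both cell types, arrays by genotype. Choroid plexus genes lie lowest on wild-type replicate 3 (-0.19), and ependymal genes lie highest on transgenic replicate 3 (0.20).

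Summed over the tested genes on the linear scale, in units of the 75th percentile of the array, the choroid plexus level was 157.7, 225.2 and 184.5 in wild-type samples and 217.9, 189.2 and 208.6 in transgenic samples. Most of this sum is Ttr, and without it the sum was 32.07, 30.92 and 24.46 in wild-type samples and 29.63, 24.94 and 27.91 in transgenic samples. The genotypes overlapped either way, and the array with the lowest sum changed from wild-type replicate 1 to wild-type replicate 3. The sum over the 28 genes of the wider choroid plexus list was 178.5, 171.6 and 147.4 in wild-type samples. In transgenic samples it was 142.5, 133.4 and 146.5, all below the wild-type samples. That sum weighs the brightest genes of the list most, Enpp2 and Car2, with mean wild-type levels of 6.37 and 4.76. Enpp2 overlapped, with levels of 6.51, 6.47 and 6.14 in wild-type samples and 6.16, 6.05 and 6.26 in transgenic samples. Car2 was lower on all transgenic arrays (below). By median deviation, which weighs each gene alike, the list overlapped (-0.14 to 0.14 in wild-type and -0.08 to 0.04 in transgenic samples). A sum without Enpp2 and Car2 was not tested. The ependymal sum was 15.85, 52.07 and 49.13 in wild-type samples and 47.6, 43.98 and 49.54 in transgenic samples, and the low value of wild-type replicate 1 came from the kept Spef2 probe. Without Spef2 it was 7.604, 9.02 and 7.436 in wild-type samples and 7.962, 7.71 and 9.094 in transgenic samples. These sums were compared only between arrays.

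Other genes of both cell types and their neighbours are given as counts. Of the 28 wider choroid plexus genes, 10 were above 0 and 18 below, 0 were called, and 4 (14.3%) did not overlap between the genotypes. The smallest p was that of Car2, a carbonic anhydrase also made by oligodendrocytes, with levels of 4.79, 4.73 and 4.76 in wild-type samples and 4.11, 4.05 and 4.19 in transgenic samples. All transgenic arrays lay below all wild-type arrays, and the difference was -0.64 ± 0.08 (limma unadjusted p = 0.000209, adjusted p = 0.119). Of the 44 wider motile cilia genes, 28 were above 0 and 16 below, 0 were called, and 4 (9.09%) did not overlap. That balance of directions turned over with normexp background correction, to 13 above 0 and 31 below, and was 22 to 22 with slide as a block. Ccdc103, a dynein arm assembly factor, had the smallest p of them, with a difference of -0.27 ± 0.09 (limma unadjusted p = 0.0299, adjusted p = 0.795). Of 9 regulators of multiciliation, 7 were tested, with a median difference of -0.01. Astrocyte genes had a median difference of -0.03, endothelial genes 0.00, meningeal genes 0.09, forebrain genes 0.28 and hypothalamic genes 0.09. The summed level of the 8 cerebellar genes was 465.4 to 502.5 in wild-type samples and 413 to 442.8 in transgenic samples, all below the wild-type samples. That of the 8 brainstem genes was 7.808 to 8.966 in wild-type samples and 6.96 to 8.796 in transgenic samples. The summed level of the 6 forebrain genes was 0.8284 to 0.9384 in wild-type samples and 0.9607 to 1.145 in transgenic samples, all above the wild-type samples. That of the 5 hypothalamic genes was 2.808 to 3.177 in wild-type samples and 1.876 to 2.283 in transgenic samples, all below the wild-type samples. Of these 5 genes, 3 were above 0 and 2 below. Their median deviation overlapped, at -0.25 to 0.18 in wild-type samples and -0.12 to 0.16 in transgenic samples. The sum weighs Crh most, which encodes corticotropin-releasing hormone and had the highest level of the 5. Its level was 1.13, 0.90 and 1.03 in wild-type samples and -0.30, 0.39 and 0.06 in transgenic samples. Crh differed by -0.97 ± 0.19 (limma unadjusted p = 0.00226, adjusted p = 0.299). The brain region that its RNA came from was not tested. The part of these regional genes in the choroid plexus and ependymal levels was not tested.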

How the data were processed

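Spot intensity values on a linear scale were deposited for 6 arrays, background-subtracted by Feature Extraction 10.7.1.1 on mm9 annotation, per the file headers. A table of processed intensity values from the authors equalled a quantile normalization within 0.01 log2 for nearly all entries and served as an alternative. The log2 of the processed signal minus that of the 75th percentile of the array was used. Outlier-flagged spots (39 to 84 per array) and control spots did not enter, none was saturated, and repeated spots were averaged per probe. Among 56605 probes, RefSeq gave a name to 32994 through the accession, to 10224 through the symbol and to 520 through a synonym, and 12867 kept theirs.

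Genotypes were compared with limma 3.58.1 in R 4.3.3 (lmFit and eBayes, 4 residual degrees of freedom) on 24932 genes or 38463 probes, with Benjamini-Hochberg adjustment over all of them. Intervals are 95% confidence intervals of the fit. The steps were tested on simulated data. Precision is limited by 3 arrays per genotype.

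The members and lists were chosen with earlier results of these data known. Values on every array are given for the 5 brightest members of each cell type, members with an unadjusted p under 0.05, the widest-ranging member of each cell type, and members whose probes disagree in sign with one probe past that threshold. Of the other lists, genes with the smallest p are named. Alternatives covered background correction, scaling, filter, probe choice, slide, title digit, variance trend and each left-out sample.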

Additional observations from a re-analysis of the deposited data

How the results depend on the processing

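No choroid plexus or ependymal gene was called under any alternative, with lowest adjusted p-values (limma) of 0.139 and 0.566. The number of all genes called was 11, and 29 with normexp, 6 with no filter, 23 with the filter on all arrays, 24 when probes of a gene were averaged, 7 with slide as a block, 27 with an intensity trend, and 0 (without transgenic replicate 2) to 6 with 1 sample left out. With 1 sample left out, median differences were -0.20 to 0.0244 for choroid plexus genes, 0.00 to 0.19 for ependymal genes, -0.19 to -0.0236 for the wider choroid plexus list and -0.03 to 0.11 for the wider cilia list. With normexp the wider cilia list had a median of -0.05. The log2 ratio of the mean choroid plexus sums was 0.12, and -0.0845 without Ttr, an alternative chosen after seeing the data. Some differences near 0 changed sign. Otx2 was 0.0056 with normexp, 0.052 with the mean of probes and 0.0706 with slide as a block. With slide as a block, Folr1 was -0.0221, Spef2 -0.13, Ccdc153 -0.0753 and Foxj1 -0.0483. Leaving out wild-type replicate 1, alone on its slide, gave the same values, so it is not a separate check. With 1 sample left out, the ranges were -0.13 to 0.0706 for Otx2, -0.12 to 0.20 for Folr1, -0.13 to 1.06 for Spef2, -0.037 to 0.17 for Dynlrb2, -0.08 to 0.19 for Ccdc153 and -0.05 to 0.16 for Foxj1. The cause was not tested. No paired analysis was possible because replicate numbers follow accession order and no label ties a wild-type sample to a transgenic one.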
